A study of Sus scrofa with 16 samples.

Results

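The genes described here are 10 markers of T cells and natural killer (NK) cells, measured in liver of pigs from a low and a high residual feed intake line: CD3D, CD3E, CD3G, CD247, CD2, CD5, CD4, CD8A, GZMB and PRF1. They were found on the array as the non-control probes whose gene name, or whose symbol in the probe description, is one of these, which gave 10 of the 4864 gene symbols on the array and 19 of its 43603 probes. Probes described as binding partners or relatives of these genes, such as the CD2-associated protein or CD5L, were not counted. Of the 19 probes, 15 could be tested, meaning that the scanner software called them well above background in at least 8 of the 16 pigs. They cover 9 of the 10 genes, since the only probe of PRF1 was too dim.

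Liver RNA came from 16 pigs (Sus scrofa) that weighed 20 kg and were fed ad libitum. Of these, 8 belonged to the strain labelled RFIneg, with low residual feed intake, and 8 to RFIpl, with high residual feed intake. Residual feed intake is the difference between what an animal eats and what its size and growth predict, so a low value means eating less than predicted. Each is represented by a single line, so a difference in feed efficiency and any other difference between the lines cannot be told apart. Each pig's RNA was hybridised alone, with Cy3, to 1 Agilent array of 60-base probes, so n is 8 pigs a line. Pigs are numbered 1 to 8 within their line, and the labels do not say that equal numbers pair pigs across the lines.

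T cells recognise antigen through a receptor that signals only together with the CD3 chains: gamma, delta and epsilon, and the zeta chain encoded by CD247. CD4 and CD8 are co-receptors that bind the presenting molecule beside the T cell receptor, while CD2 and CD5 are surface proteins that promote adhesion and dampen signalling, respectively. NK cells lack a T cell receptor but share CD247 and, in pigs, CD2 and CD8 alpha, and both NK and cytotoxic T cells kill with perforin (PRF1) and granzymes (GZMB). The liver holds many lymphocytes of both kinds among its hepatocytes, in the sinusoids and around the portal vessels.

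A level is the log2 processed signal of a probe minus the 75th percentile of its own array, so a level of 0 is the signal that 75% of probes stay below. Levels compare pigs for the same probe and are not set against each other between probes. This percentile ranged from 320.0 to 508 intensity units over the arrays, and local background had a median of 29 to 40. Between 28576 and 34977 probes per array were well above background, and arrays correlated pairwise at 0.9587 to 0.9888. Probes spotted repeatedly scattered more on RFIpl arrays, where the median coefficient of variation was 8.04 ± 0.66%, than on RFIneg arrays, where it was 6.97 ± 0.503% (SD, n = 8 each). The scanner software marked 5 arrays for evaluation, all of RFIpl pigs. The arrays lay on 4 slides, each with 2 pigs of each line. The samples carry numbers in 2 separate series, each with 4 pigs of each line. Hepatocyte markers were plain in every pig, with all 9 genes of a list of 14 that were on the array tested and a summed level, on the linear scale relative to the 75th percentile, of 2930 to 4520.

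The probe sequences show what was measured for the members that the results turn on. The CD3G probe, 1 of the 3 CD247 probes and the CD2 probe lie at bases 344, 278 and 516 of the transcript that the array design names for each, and are shown whole.

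CD3G, A_72_P088461: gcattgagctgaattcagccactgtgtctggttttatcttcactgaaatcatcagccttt

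CD247, A_72_P186391: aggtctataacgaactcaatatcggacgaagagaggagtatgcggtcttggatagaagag

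CD2, A_72_P178131: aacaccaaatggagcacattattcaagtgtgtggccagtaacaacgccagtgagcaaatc

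The next probes lie further along their transcripts and are shown by their first 30 bases. The CD3E probe starts at base 824, the CD4 probe at base 2307, and the CD8A probes at bases 1974 and 908. Between pigs the CD8A probes varied together only weakly (r = 0.32, not tested).

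CD3E, A_72_P165731: acccagcccaaggatattgctgcctcatta

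CD4, A_72_P077421: ataccacacagatctctgcagctggctagt

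CD8A, A_72_P077466: tgcgtgctcgctggaagaaaaaactaaata

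CD8A, A_72_P685866: aagacctcaaactgagacctctccgggcag

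GZMB has 2 probes that overlap by 44 bases, where 41 bases match and 3 differ, shown in capitals. Counted from the first base of the overlap, the substitutions from A_72_P606603 to A_72_P210527 are G30T, A35G and G36A. Because granzyme genes resemble each other, and GZMH is the neighbour of GZMB in the pig assembly Sscrofa11.1, signal of a near copy in these probes cannot be told apart from GZMB.

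GZMB, A_72_P606603: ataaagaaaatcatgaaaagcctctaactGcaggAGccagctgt

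GZMB, A_72_P210527: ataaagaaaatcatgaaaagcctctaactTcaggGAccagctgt

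The first question was whether liver levels of these markers differed between the lines. No difference passed the test in any of the 9 tested genes: 0 of 15 tested probes reached an adjusted p of 0.05 (limma, Benjamini-Hochberg over 30097 probes, adjusted p from 0.977 to 0.999). Among all tested probes 3 passed, or 0.00997%, and at an unadjusted p under 0.05 the counts were 0 of 15 against 1640, or 5.45%. In every marker the lines overlapped, as they did in all but 13 tested probes, or 0.0432%. With 1 probe a gene, that with the highest mean level, 6 of 9 genes had a higher mean in RFIneg liver, and the median change (RFIneg minus RFIpl) was +0.05 on the log2 scale, beside 0.00 over all tested probes. Of all named genes 2203 of 4056 were higher, with a median of +0.02. The marker count moved with the scaling, to 8 of 9 and a median of +0.22 under normexp background correction (all probes +0.09) and to 7 of 9 and +0.11 under quantile normalisation. In whole liver, fewer cells of a type and less RNA per cell cannot be told apart.

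**Figure D1:**
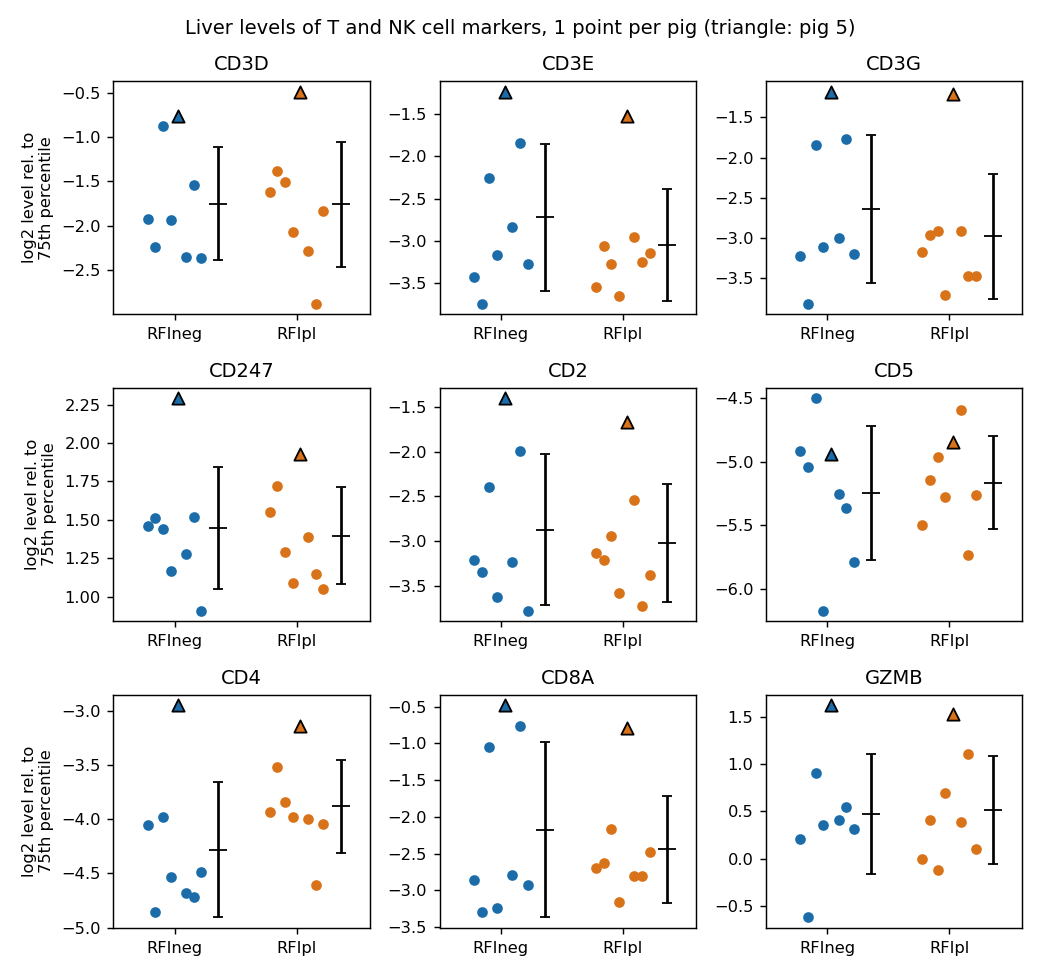
Level of each of the 9 tested genes (y axis, log2 scale, with 0 at the 75th percentile of the array) in 8 RFIneg (blue) and 8 RFIpl (orange) pigs, 1 point per pig, with bars at the mean and 1 SD either side. Pig 5 of each line, drawn as a triangle, is the highest of its line in every panel but CD5.

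The gamma, delta and epsilon chains of CD3 are encoded by neighbouring genes (CD3E, CD3D and CD3G in Sscrofa11.1). CD3G had a lowest, median and highest level of −3.82, −3.06 and −1.18 in RFIneg liver and of −3.71, −3.07 and −1.21 in RFIpl liver. The ranges covered each other almost fully, with a mean of −2.64 ± 0.92 against −2.98 ± 0.78 (SD, n = 8 each). The limma change was +0.34 (SE 0.387, 95% confidence interval −0.48 to 1.16, adjusted p = 0.982), so a level 1.39-fold lower or 2.23-fold higher in RFIneg liver lies within the error.

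CD3E had a lowest, median and highest level of −3.74, −3.0 and −1.24 in RFIneg liver and of −3.65, −3.20 and −1.53 in RFIpl liver. Its change was +0.33 (SE 0.351, interval −0.41 to 1.07, limma adjusted p = 0.979), with 4 of 8 RFIneg pigs above the RFIpl mean. CD3D spanned −2.37, −1.93 and −0.77 in RFIneg and −2.88, −1.73 and −0.49 in RFIpl liver. Here RFIpl pigs held both the lowest and the highest level, and the change was +0.01 (SE 0.308, interval −0.64 to 0.66). A second CD3D probe (A_72_P504254) had a change of −0.16, and further probes of CD3D and CD3G were well above background in 7 and 4 pigs and were not tested.

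CD247, the zeta chain, which carries signalling motifs of the T cell receptor and of NK cell receptors, varied least among the CD3 chains. Its level was 0.91, 1.45 and 2.29 (lowest, median, highest) in RFIneg and 1.05, 1.34 and 1.93 in RFIpl liver. The change was +0.05 (SE 0.174, interval −0.32 to 0.41, limma adjusted p = 0.998), so the interval runs from 1.25-fold lower to 1.33-fold higher. From the lowest to the highest of 16 pigs CD247 differed 2.60-fold, beside 6.21-fold for CD3G, 5.69-fold for CD3E and 5.24-fold for CD3D. The other CD247 probes had changes of +0.10 and −0.01.

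CD2, an adhesion receptor of T and NK cells, had levels of −3.78, −3.22 and −1.40 in RFIneg and −3.73, −3.17 and −1.66 in RFIpl liver. Its change was +0.15 (SE 0.348, interval −0.58 to 0.88, limma adjusted p = 0.998). The second CD2 probe (A_72_P131826), named only in the probe description, had the largest change of the 15 tested probes, +0.53 (SE 0.344, interval −0.20 to 1.25, adjusted p = 0.977). Both CD2 probes gave overlapping lines.

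CD5, which restrains T cell receptor signalling, was well above background in 4 RFIneg and 5 RFIpl pigs, the fewest of the 9 tested genes. Its levels were −6.17, −5.15 and −4.50 in RFIneg and −5.73, −5.20 and −4.59 in RFIpl liver, with a change of −0.08 (SE 0.214, interval −0.53 to 0.37). Its direction was not stable: under quantile normalisation, cyclic loess and normexp background correction the change was 0.11, 0.02 and 0.22.

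CD4, the co-receptor of helper T cells, had the lowest unadjusted p of the 9 genes by the chosen probe. Its levels were −4.86, −4.51 and −2.95 in RFIneg and −4.61, −3.95 and −3.14 in RFIpl liver. Only 1 of 8 RFIneg pigs, pig 5, lay above the RFIpl mean, and that pig was also the highest of all 16. The change was −0.40 (SE 0.248, interval −0.92 to 0.12, limma adjusted p = 0.977), and under normexp background correction it was 0.12. The second CD4 probe was above background in 5 pigs.

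CD8A, the alpha chain of the co-receptor of cytotoxic T cells, varied most between pigs among the 9 tested genes, 7.0-fold from the lowest to the highest. Its levels were −3.29, −2.83 and −0.48 in RFIneg and −3.16, −2.66 and −0.79 in RFIpl liver. The SD was 1.19 in RFIneg and 0.73 in RFIpl pigs, and the change was +0.27 (SE 0.447, interval −0.68 to 1.21, limma adjusted p = 0.997). In RFIneg liver 3 pigs stood high, pigs 3, 5 and 7 at −1.05, −0.48 and −0.76, and the other 5 lay between −3.29 and −2.79. In RFIpl liver only pig 5 was in that range, and the next pig was at −2.16. The second CD8A probe (A_72_P685866) spanned 3.64-fold and had a change of −0.07.

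GZMB, a protease that cytotoxic cells deliver into their targets, had levels of −0.62, 0.38 and 1.62 in RFIneg and −0.12, 0.40 and 1.53 in RFIpl liver. The medians were nearly the same and the change was −0.05 (SE 0.278, interval −0.64 to 0.54, limma adjusted p = 0.998). The overlapping probe A_72_P210527 had a change of +0.29 (SE 0.351, adjusted p = 0.983). With array noise as a covariate the change of GZMB was −0.72 (limma adjusted p = 0.781), and without the 5 marked arrays −0.65. Noise had an r of −0.61 with GZMB between pigs (rho −0.62, permutation adjusted p = 0.225 for r), and its part in the difference was not tested. The direction of the GZMB difference differed between probes that share 41 matching bases. PRF1, the pore-forming protein that lets granzymes in, was well above background in 2 RFIneg and 0 RFIpl pigs, with 1.93 to 20.2 intensity units, and no fold is given.

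**Figure D2:**
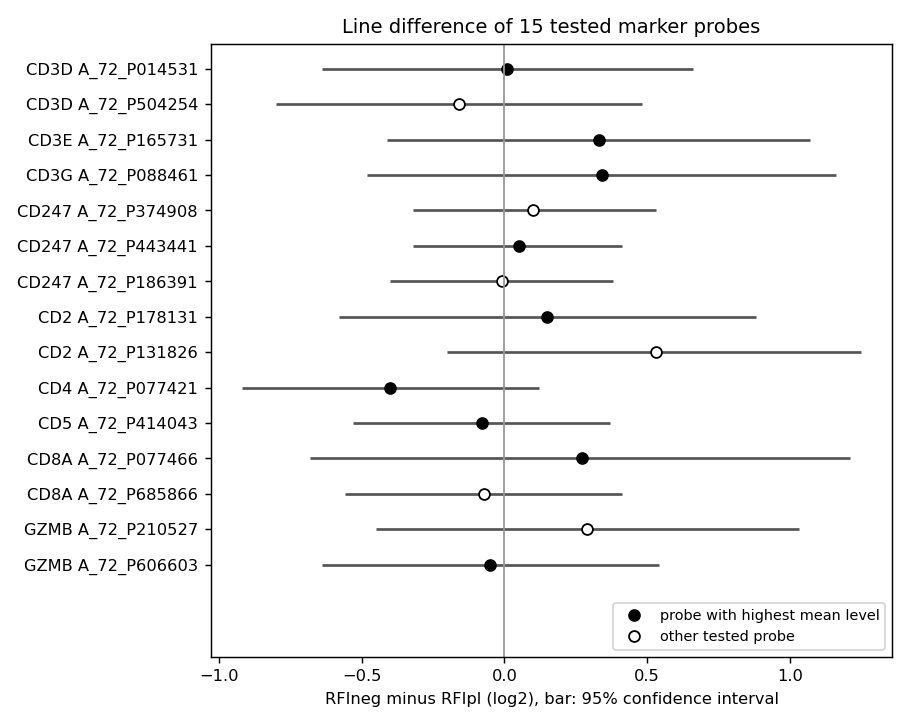
RFIneg minus RFIpl difference on the log2 scale (x axis) of each of the 15 tested probes, with its 95% confidence interval from limma. Filled points mark the probe used for its gene and open points the others, and every interval crosses 0.

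Further genes of the same cells were taken from 3 lists: T cell receptor and signalling, cytotoxic and NK cell, and T and NK transcription factors and cytokine receptors. Of 85 genes, 43 were on the array and 32 were tested, and 0 of 32 passed in limma, with 2 at an unadjusted p under 0.05. Both of those are activating receptors of NK cells and they went in opposite directions. NCR3 was at −3.38 ± 0.79 in RFIneg and −4.14 ± 0.71 in RFIpl liver (SD, n = 8 each), a change of +0.75 (SE 0.343, limma adjusted p = 0.909). NCR1 was at −4.97 ± 0.73 and −4.11 ± 0.68, a change of −0.86 (SE 0.323, adjusted p = 0.748), and was above background in 12 pigs.

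Among T cell receptor and signalling genes, 5 of 8 tested were higher in RFIneg liver, with a median change of +0.05. LCK, the kinase that starts T cell receptor signalling, had +0.34 and its relative FYN +0.07, and the inhibitory receptor CTLA4 had −0.23 and the homing receptor CCR7 −0.11. Of the cytotoxic and NK genes 10 of 15 were higher, with a median of +0.16, among them the adaptor HCST with +0.20, while the adaptor TYROBP had −0.07. Of the transcription factors and cytokine receptors 4 of 9 were higher, with a median of −0.03. There STAT4 had +0.25, the chemokine receptor CXCR6 −0.36 and ETS1 −0.04. None of these 32 differences passed the adjusted limma test.

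The second question was whether the markers varied together between pigs. They did over the 16 pigs together, while r within each line was not tested. Of 36 pairs among the 9 tested genes, 27 were correlated over the 16 pigs (Pearson r of deviations from the line mean, two-sided permutation test within lines, 100000 resamples, Benjamini-Hochberg over the 36 pairs). The test takes the 16 pigs as independent. All 36 values of r were above 0, with a median of 0.71 and a range of 0.14 to 0.97, and by Spearman's rho 20 pairs passed. The median r was 0.75 within RFIneg and 0.71 within RFIpl, and 0.70 with slide means removed. Within the first and second series of sample numbers, 8 pigs each, it was 0.63 and 0.81, with 0 and 18 pairs passing an exact permutation test.

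The closest pairs joined the CD3 epsilon and gamma chains, CD8A and CD2. For CD8A this holds for the probe used, A_72_P077466, since A_72_P685866 had r = 0.44 with CD3G and 0.32 with CD3E. CD3E and CD3G had r = 0.97 and rho = 0.90 (permutation adjusted p = 0.00036 and 0.00117, the raw p of r being the smallest that the resamples can give, 1e-05). Without the 2 pigs farthest from the median r was 0.92, and it was 0.98 within RFIneg and 0.95 within RFIpl. CD3G and CD8A had r = 0.95 and rho = 0.86 (permutation adjusted p = 0.00036 and 0.00117), with 0.91 without those pigs. CD3G and CD2 had r = 0.93 and rho = 0.85 (permutation adjusted p = 0.00036 and 0.00117), with 0.85 without them. CD2 with CD8A, and CD3E with CD8A and CD2, gave 0.91, 0.93 and 0.91.

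**Figure D3:**
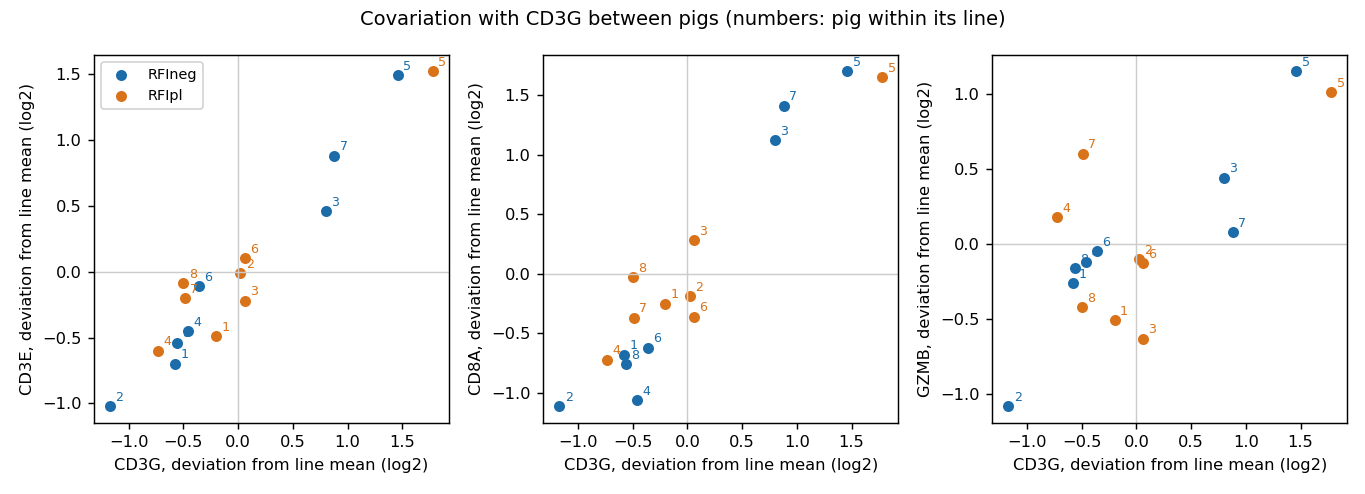
Deviation from the line mean (log2) of CD3E, CD8A and GZMB (y axes) against that of CD3G (x axes), 1 numbered point per pig, with RFIneg in blue and RFIpl in orange. CD3E and CD8A follow CD3G through all 16 pigs (r of 0.97 and 0.95), and GZMB has an r of 0.74 with it, where pig 5 of each line is highest and pig 2 of RFIneg lowest. CD8A is drawn by A_72_P077466, and its other probe, A_72_P685866, had an r of 0.44 with CD3G.

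CD3D followed CD3G with r = 0.83 and CD4 with r = 0.83 (permutation adjusted p = 0.00108 and 0.00084, rho 0.69 and 0.79, permutation adjusted p = 0.0196 and 0.00355). CD247 followed CD2 with r = 0.82 and CD3G with r = 0.73, and rho was 0.76 and 0.60. Its relation to CD3G was 0.20 in the first series of sample numbers and 0.93 in the second, which holds pig 5 of both lines. Without those pigs r was 0.38, and the difference between the series was not tested. CD4 correlated with CD3D more closely than with CD3E (0.66) or CD8A (0.64) by value, and the difference between these r was not tested.

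GZMB was correlated with CD3E and CD3G, while its r with CD3D (0.47) and CD247 (0.48) did not pass (permutation adjusted p = 0.0911 for both). Over all other 8 genes its r had a median of 0.59, from 0.79 with CD3E (rho 0.65, permutation adjusted p = 0.00108 for r and 0.0233 for rho) to 0.14 with CD5. With CD3G it was 0.74 by r and 0.51 by rho, and only r passed (permutation adjusted p = 0.00309 and 0.0836). Its r with CD8A (0.67), CD2 (0.59) and CD4 (0.58) also passed, but rho did not (permutation adjusted p = 0.104, 0.294 and 0.353 for rho). Without pig 5 of both lines the r of GZMB was 0.52 with CD3E and 0.43 with CD3G. With CD8A, CD2 and CD4 it was then 0.34, 0.10 and 0.00. Within lines GZMB and CD3G gave 0.91 in RFIneg and 0.53 in RFIpl pigs, a difference that was not tested. CD5, near the detection limit, had a median r of 0.47 with the others, and only its r with CD2 passed (0.61, rho 0.69, permutation adjusted p = 0.0299 and 0.0203).

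Pig 5 of each line stood out in this covariation. RFIneg pig 5 and RFIpl pig 5 were the highest of their line in 8 of 9 genes each, with CD5 the exception (RFIneg pig 3 and RFIpl pig 6). Their median deviation from the line mean over the 9 genes was +1.33 and +1.27, and the next highest pig was RFIneg pig 3 at +0.48. Without both pigs the median r of the 36 pairs fell from 0.71 to 0.43, with 33 of 36 above 0 and 9 passing instead of 27. Leaving out RFIneg pig 5 alone left 17 pairs passing, and leaving out RFIpl pig 5 alone left 18. These 2 pigs were singled out after the values were seen.

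Over the median of the other 7 pigs of its line, CD8A was 5.21-fold higher in RFIneg pig 5 and 3.73-fold higher in RFIpl pig 5. CD3G was 3.81-fold and 3.92-fold, CD3E 3.81-fold and 3.29-fold, and CD2 3.58-fold and 2.93-fold higher. The increase was smaller for GZMB, at 2.41-fold and 2.20-fold, and for CD247, at 1.80-fold and 1.56-fold. For CD4 it was 2.99-fold and 1.79-fold, and for CD3D 2.25-fold and 2.53-fold. As the pigs were picked for their levels, these folds were not tested.

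Both pigs were hybridised on slide 2 and belong to the second series of sample numbers. RFIneg pig 5 lay at position 2 of that slide and RFIpl pig 5 at position 3. Their sample numbers, 56 and 55, are consecutive. The part of these shared circumstances in their levels was not tested. Of the other pigs of slide 2, RFIneg pig 1 was above its line mean in 3 of 9 genes, with a median deviation of −0.26, and RFIpl pig 2 in 5 of 9, with +0.02. RFIpl pig 2 came next after pig 5 in its line for CD3D (−1.39), CD247 (1.72) and CD4 (−3.52), but lay near the line mean for CD3G (−2.96). The local background of the arrays of pig 5 was 39 and 39.5, beside 39.5 and 38 on the other arrays of slide 2. Their 75th percentiles were 428 and 508 intensity units, and neither array was marked for evaluation. Over all 16 arrays, local background, noise, 75th percentile and the number of probes above background gave 36 relations to the 9 genes, of which 0 passed. The closest was local background with CD247 (r = 0.72, rho = 0.75, permutation adjusted p = 0.0608 for r, and r = 0.62 without the 2 farthest arrays), and local background had an r of 0.30 to 0.72 with every gene, whose part in the covariation was not tested.

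Among CD3E, CD3G, CD2 and CD8A, r lay between 0.78 and 0.92 without pig 5 of both lines. Between CD3D and CD4 it was 0.75. CD247 and GZMB went from 0.48 to −0.21, CD4 and GZMB from 0.58 to 0.00, and CD3E and CD4 from 0.66 to 0.12. In the remaining 14 pigs RFIneg pigs 3 and 7 were high for CD3G (−1.85 and −1.77), CD3E (−2.26 and −1.84) and CD8A.

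**Figure D4:**
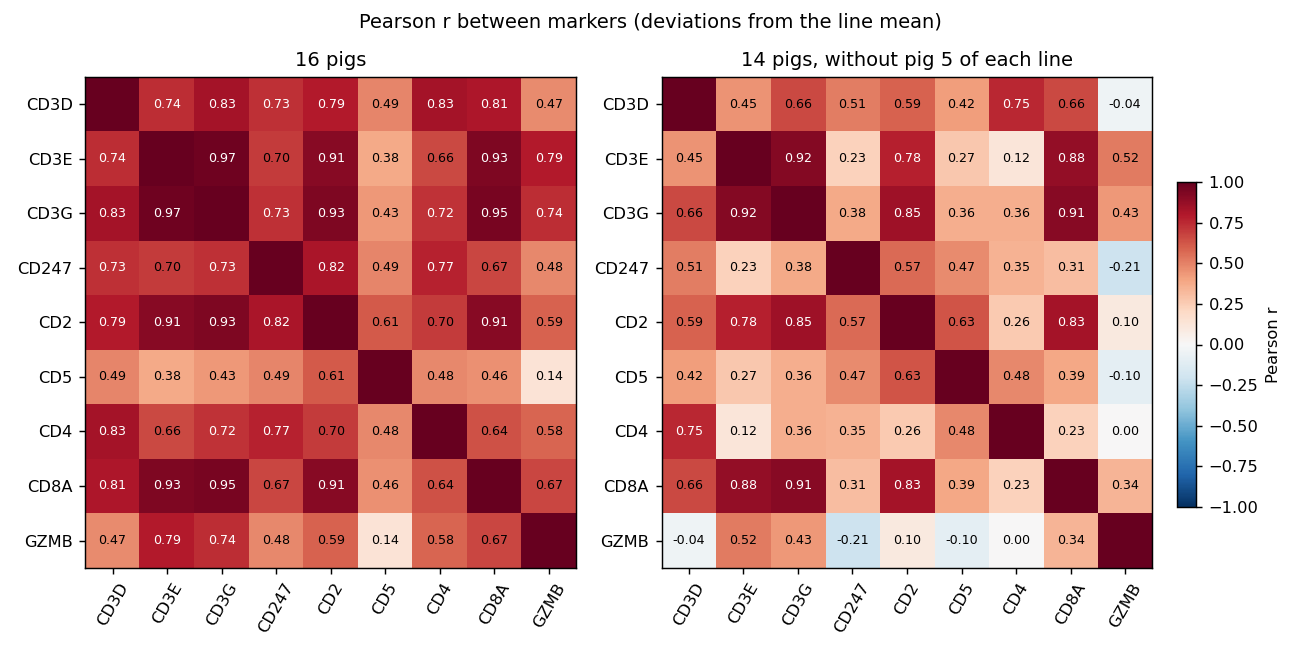
Pearson r between the 9 tested genes (both axes) as deviations from the line mean, over 16 pigs on the left and over 14 pigs, without pig 5 of each line, on the right, on a colour scale from −1 to 1. Values among CD3E, CD3G, CD2 and CD8A stay at 0.78 or more on the right, while most values of GZMB, CD4 and CD247 are lower there.

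Probes of the same gene gave a further view of what was measured. The GZMB probes, which overlap by 44 bases and so are not separate measures, followed each other at r = 0.97 over 16 pigs. The 3 CD247 probes did so at 0.87 to 0.96, and the CD2 probes at 0.88. The tested CD3D probes gave 0.60, and A_72_P504254 followed CD3G at 0.86, beside 0.83 for the probe used. The CD8A probes gave 0.32, and 0.21 without pig 5 of both lines. While A_72_P077466 followed CD3G at 0.95, A_72_P685866 did so at 0.44, so the high levels of CD8A in RFIneg pigs 3, 5 and 7 rest on 1 probe. The untested probes of CD3D, CD3G and CD4 gave 0.50 to 0.67 with the probe of their gene that was used, and PRF1 followed CD3G at 0.49. These values are descriptions, with no test.

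To see which other genes had the pattern of the CD3 chains, the standardised deviations of CD3D, CD3E, CD3G and CD247 were averaged in each pig. The r of 4041 named genes with this mean is a description without a test, since all share the same arrays. SLA2 and ARHGAP30 came closest, both at 0.97, followed by CST7 and LCK at 0.96. SLA2 is an adaptor that dampens T cell receptor signalling, CST7 is an inhibitor of cathepsins in cytotoxic cells, and LCK is the kinase that phosphorylates the CD3 chains. GPSM3 (0.94), PIK3R5 (0.93), S100A4 (0.92), IL16 (0.92), STAT4 (0.92) and TMEM71 (0.90) followed.

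All 10 of these genes were well above background in every pig, and without pig 5 of both lines their r was 0.76 to 0.93. None passed the test between the lines, with changes of −0.11 to +0.54 and adjusted p of 0.945 to 0.998 in limma. Lowest were GCLM, a subunit of the enzyme that starts glutathione synthesis, at −0.81, SEC61A1, a part of the channel into the endoplasmic reticulum, at −0.80, and AKR1C4, a liver enzyme of steroid metabolism, at −0.79. Without pig 5 of both lines these were −0.85, −0.44 and −0.42. With PRF1 too dim, GZMB alone served for the cytotoxic pattern. The genes most like it were GZMM at 0.84, another granzyme, then SLAMF6 (0.78), ICOS (0.77), RHOG (0.76) and KCNAB2 (0.75). Without pig 5 of both lines, GZMM stayed at 0.72 and the others fell to between 0.39 and 0.48.

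Of the 32 further T and NK genes, 20 had an r over 0.7 with the CD3 chains, or 62.5%, beside 124 of 4041 named genes, or 3.07%. The mark of 0.7 was set after the values were seen. Without pig 5 of both lines it was 9 of 32, or 28.1%, beside 45 of 4041, or 1.11%. An r over 0.7 was not particular to the T and NK lists. It was also found in 4 of 4 pan-leukocyte genes and 4 of 9 Kupffer cell and macrophage genes. Without pig 5 of both lines these were 1 of 4 and 0 of 9. In the B and plasma cell, dendritic cell, granulocyte, erythroid, hepatocyte, endothelium, stellate cell and bile duct lists it was 0 genes. The median r was 0.83 for T cell receptor and signalling genes, 0.77 for cytotoxic and NK genes and 0.69 for transcription factors and cytokine receptors. It was 0.86 for pan-leukocyte genes, 0.51 for Kupffer cell and macrophage genes, and −0.01 over all named genes.

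Besides LCK, SH2D1A and SIT1, both signalling adaptors of lymphocytes, had 0.89, the costimulatory receptor ICOS 0.84 and FYN 0.82. CD8B, which pairs with CD8A on cytotoxic T cells and is its neighbour in Sscrofa11.1, had 0.62 and was above background in 11 pigs. In the cytotoxic list the chemokine CCL5 had 0.88, the granzymes GZMH 0.87, GZMK 0.80 and GZMA 0.77, the receptor KLRK1 0.78 and the Fc receptor FCGR3A 0.77. NCR3, the NK receptor with the larger level in RFIneg liver by value, had 0.78, whereas NCR1 had 0.32. KLRK1 was the cytotoxic gene that moved least when pig 5 of both lines was left out, at 0.79.

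Several genes of T and NK cell subsets had a low r with the CD3 chains. CTLA4 and IL2RA, found on regulatory and activated T cells, had −0.10 and −0.15. IL2RA varied little between pigs, with an SD of 0.18 in RFIneg and 0.25 in RFIpl liver. LEF1, found in naive T cells, had 0.01, although CCR7, a homing receptor of naive T cells, had 0.76. S1PR5, a receptor of circulating NK cells, had −0.29. STAT4, IL12RB1 and GATA3, which steer helper T cells, had 0.92, 0.82 and 0.78.

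**Figure D5:**
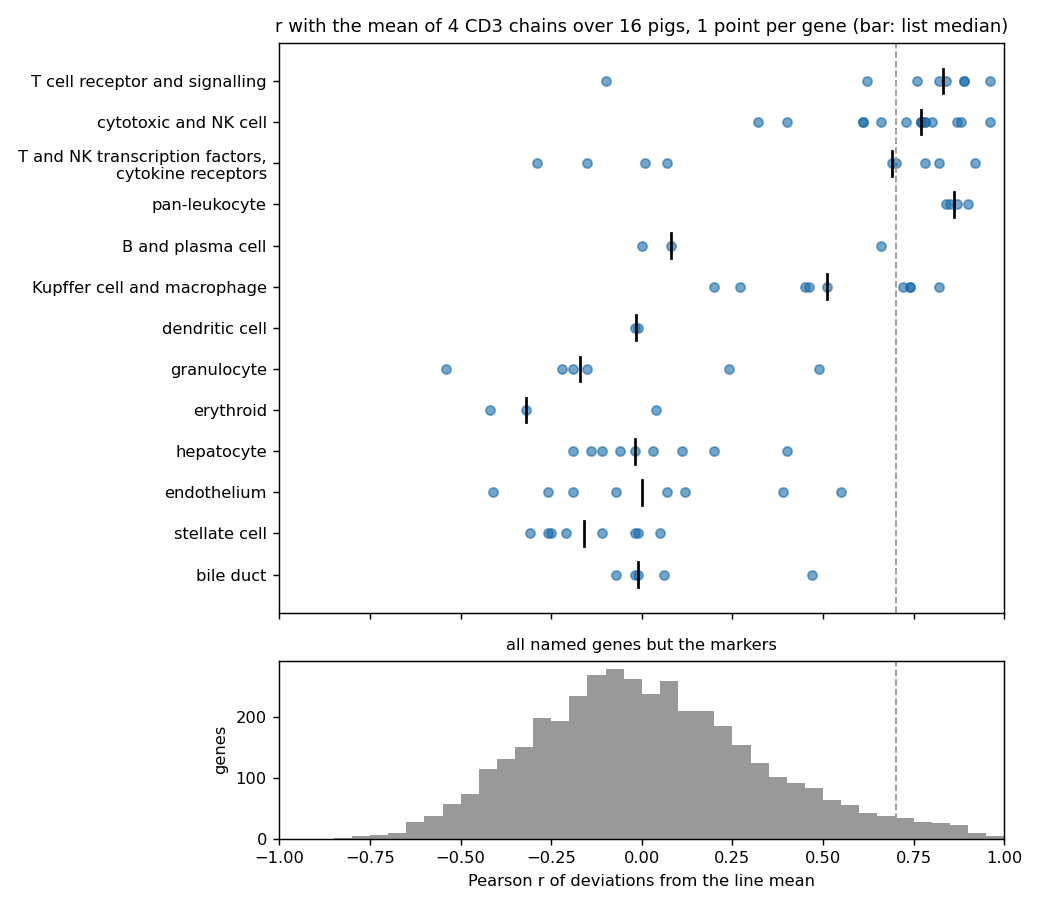
Pearson r with the mean of the 4 CD3 chains (x axis) over 16 pigs, 1 point per gene in each of 13 gene lists, with a bar at the list median and a dashed line at 0.7, above the distribution of r over 4041 named genes. The T and NK lists and the 4 pan-leukocyte genes lie mostly to the right, and hepatocyte, endothelium, stellate cell and bile duct genes spread around 0. Kupffer cell and macrophage genes lie between, with a median of 0.51 and 4 of 9 over 0.7.

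Markers of other cells were set beside CD3G in the same way, as the mean level of each list in 10 relations. Pan-leukocyte genes, of which 4 of 16 were on the array (ITGB2, ITGAL, LCP1 and CD53), followed CD3G at r = 0.79 (rho 0.66, permutation adjusted p = 0.0055 for r, unadjusted 0.00892 for rho), and at 0.50 without the 2 farthest pigs. Kupffer cell and macrophage genes, 9 of 20, had an r of 0.63 with CD3G, which did not pass (rho 0.59, permutation adjusted p = 0.0592 for r, unadjusted 0.0248 for rho), and 0.34 without those pigs. Their summed linear level was 119 to 208 in RFIneg and 117 to 203 in RFIpl liver. Their highest r with the CD3 chains were those of AIF1 (0.82), C1QA (0.74), SIGLEC1 (0.74) and VSIG4 (0.72), and without pig 5 of both lines 0 of 9 exceeded 0.7. In pig 5 of RFIneg and RFIpl the macrophage mean was +0.71 and +0.39 above the line mean, and the pan-leukocyte mean +1.10 and +1.01.

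B and plasma cell genes did not move with CD3G beyond the error, with r = 0.17 for 3 tested genes of 19 (permutation adjusted p = 0.836). Their mean deviated by +0.29 and 0.00 in pig 5 of RFIneg and RFIpl. Dendritic cell, granulocyte, erythroid, hepatocyte, endothelium, stellate cell and bile duct means had r of −0.41 to 0.16, with permutation adjusted p of 0.404 or more. The hepatocyte mean deviated by −0.06 and −0.05 in the same pigs. The part of macrophages in the covariation of the T and NK markers was not tested.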

How the data were processed

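Per the file headers, the scanner files come from Agilent Feature Extraction 10.7.3.1. Their processed signal is an intensity from which background was subtracted and spatial trends were removed, with no scaling between arrays. The deposited series table of the authors holds log2 values centred per array, and the submitters' processing notes name R 2.10.0. The sources used here do not give how spots were kept for it. It served only as an alternative. No column of another series was present (0 unused columns).

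Outlier spots were set to missing, log2 processed signal was centred on the 75th percentile of each array, and spots of a probe were averaged. Probes carried 4864 symbols on 11249 of 43603 probes. Of 5779 probes named by a RefSeq accession, 5461 were matched to a symbol. Sequences come from the deposited probe annotation. No genome was used, so probe positions in the genome are not given.

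The lines were compared with limma 3.58.1 in R 4.3.3 (with the package data.table, version 1.17.8), without covariates, over 30097 probes. Array number limits the precision. Covariation used deviations from the line mean, and figures used pandas 2.3.3 and matplotlib 3.10.9 in Python 3.11.15. The analysis was tested on simulated data.

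The members and gene lists were chosen with earlier results of these data known. Named genes were all members by their tested probe with the highest mean level, the 2 genes with the smallest p per direction in each further T and NK list, the 10 genes most and 3 least like the CD3 chains, and the 5 most like GZMB. A gene that this rule names is not reported here. Genes named from the lists for their r with the CD3 chains were chosen after the values were seen.

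Alternatives were quantile normalisation, cyclic loess, median scaling, normexp (offset 50), the authors' table, other filters and kept outlier spots. Further ones were slide, series of sample numbers or replicate number as a block, array noise as a covariate, robust variances, array weights, means over probes, each slide alone, and leaving out each pig. Leaving out the marked arrays or pig 5 of both lines, pairs among genes above background on all arrays, and pair differences of same-numbered pigs were added after seeing the data.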

Additional observations from a re-analysis of the deposited data

Results flagged for a closer look

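Within each line, 1 pig lay far from the other 7 in 5 of 18 groups (9 genes in 2 lines), by a gap to the nearest pig that, as a share of the group's range, exceeded Dixon's 95% value for 8 samples. Chance alone marks about 1 in 20 groups, but the groups share their pigs. The marks use the same levels for which pig 5 was singled out, so they are a description and not a test. In RFIpl liver pig 5 stood apart for CD3E (−1.53, with the next pig at −2.95), CD3G (−1.21, next −2.92) and CD8A (−0.79, next −2.16). In RFIneg liver pig 5 stood apart for CD247 (2.29, next 1.52) and CD4 (−2.95, next −3.98). In RFIneg liver CD3E, CD3G and CD8A of pig 5 did not stand apart by this measure, since pigs 3 and 7 were also high.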

How the results depend on the processing

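The 9 tested markers and the 32 further T and NK genes gave 0 calls between the lines in each of 21 alternatives and without each pig in turn. Over all probes, 3 were called. This was 1 with a filter on all 16 arrays, 0 with array noise as a covariate, 7 with array weights, 0 within slides 1, 3 and 4, 0 without the 5 marked arrays and 1 without pig 5 of both lines. Leaving out single pigs gave 2 to 5 calls, with 5 without RFIneg pig 2 or RFIpl pig 4. The cause of these shifts was not tested, and some of these alternatives also removed probes or pigs. The labels do not say that replicate numbers pair pigs. As a hint from the data, 6 of 8 same-numbered pairs correlated over 0.1. Of the RFIneg pigs, 5 of 8 correlated best with the RFIpl pig of their own number. In both lines, however, pigs 1 to 4 carry sample numbers of the first series and pigs 5 to 8 of the second. Every RFIneg pig correlated best with an RFIpl pig of its own series, and the part of the shared series in these counts was not tested. The highest r of a same-numbered pair was 0.40, between pig 5 of both lines. With the replicate block 4 probes and 0 markers were called between the lines. For the marker pairs, differences of same-numbered pigs (a replicate block with 8 values, exact permutation, added after seeing the data) gave 7 of 36 pairs and a median r of 0.59, with 35 above 0.

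Changes that turned direction, none of them called, were as follows. Under normexp CD4 was 0.12 and CD5 0.22, and CD5 was 0.11 under quantile normalisation and 0.02 under cyclic loess. With array noise as a covariate CD3E was −0.11, CD3G −0.04, CD5 0.32 and CD8A −0.03. With array weights CD3D was −0.12, CD247 −0.01 and GZMB 0.09. Within slide 2, CD3D was −0.41, CD3E −0.03, CD3G −0.12 and CD5 0.07, and within slide 3 CD5 was 0.63. Within slide 4, CD3D was −0.49, CD3E −0.01, CD247 −0.13, CD2 −0.54, CD8A −0.77 and GZMB 0.34. As means over probes CD3D was −0.08 and GZMB 0.12, and without the marked arrays CD5 was 0.04. With array noise as a covariate and without the marked arrays GZMB kept its direction at −0.72 and −0.65. Leaving out single pigs gave −0.15 to 0.19 for CD3D, 0.12 to 0.55 for CD3E, 0.13 to 0.59 for CD3G, 0.02 to 0.50 for CD8A, −0.59 to −0.29 for CD4, −0.07 to 0.13 for CD247, −0.06 to 0.34 for CD2, −0.19 to 0.05 for CD5 and −0.21 to 0.11 for GZMB. CD3G and CD5 were not in the authors' table, and CD5 was also out under the filter on all 16 arrays.

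Of 36 marker pairs 27 were correlated. This became 17 under normexp, 0 in the first series of sample numbers alone and 9 without pig 5 of both lines, where the median r fell from 0.71 to 0.43. The first series alone had a median r of 0.63, and few permutations were possible there. Leaving out single pigs gave 17 to 28 pairs and a median r of 0.58 to 0.76. Signal near background limits CD5, and PRF1 could not be tested.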
